A study of Mus musculus with 12 samples.

Results

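In a mouse model of amyotrophic lateral sclerosis (ALS), spinal cord RNA of mice given either of 2 antioxidant treatments was compared, as 1 pooled set, with that of mice given phosphate-buffered saline. The members were chosen by their group labels alone, which gave 9 of the 12 libraries of the study. The treated set held 6 libraries, 3 of mice treated with manganese-doped carbon dots (group C: C79, C84 and C85) and 3 of mice treated with edaravone (group E: E75, E77 and E90). The saline set held 3 libraries of mice given saline (group P: P66, P67 and P74). All 9 mice carried the ALS model, and the other 3 libraries (H1, H2 and H4) came from healthy wild-type mice. The sources used here do not give the strain or transgene of the model, the age or sex of the mice, or the dose, route and duration of the treatments. Code E was read as edaravone by elimination, because the series text names the codes H, C, E and P but describes edaravone under D. Each library came from the lumbar cord of 1 mouse, and 16.8 to 19.8 M reads were recovered from the tables for each library.

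In ALS, motor neurons of the cord degenerate while microglia and astrocytes around them become reactive, and oxidative damage is among the known features of the affected tissue. Superoxide dismutases turn superoxide into hydrogen peroxide, which catalase, glutathione peroxidases and peroxiredoxins then remove. Cells under oxidative stress raise many such genes through the transcription factor NRF2, which binds the antioxidant response element in their promoters. A nanozyme is a nanoparticle that catalyses reactions as an enzyme does, and the series title describes the carbon dots as one with the activity of superoxide dismutase (SOD). Edaravone is a small molecule that scavenges radicals and is used to treat ALS. Pooling C with E asks which genes differed from saline on average over both treatments. The value of each treatment is given beside the average for some of the genes and lists where they part.

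No gene passed the test between the pooled treated libraries and saline (limma, Benjamini-Hochberg adjusted p of 0.05), so 0% of the 18118 genes tested were called. The smallest adjusted p was 0.0636. At an unadjusted p under 0.05 there were 1034 genes (5.71%), 625 with higher values in the treated libraries (3.45%) and 409 with lower values (2.26%). For comparison, 906 genes are 5% of those tested. The limma-voom test on recovered reads also called 0 genes, with 943 at an unadjusted p under 0.05. The median standard error of a log2 difference was 0.10. A typical 95% confidence interval extended by 0.22 above and below the estimate (median). Differences smaller than that were therefore not detectable for a typical gene. The adjusted threshold is stricter than this unadjusted interval, so larger differences could also miss it. Only 23 genes differed by 2-fold or more on the log2(FPKM + 1) scale, where FPKM is the length- and depth-scaled read level. All differences below are treated minus saline on that scale, and they understate the change of low genes. They are given ± standard error for 6 libraries against 3. That error comes from the spread within each of the 4 groups, healthy included, and leaves out any difference between C and E.

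**Figure D1:**
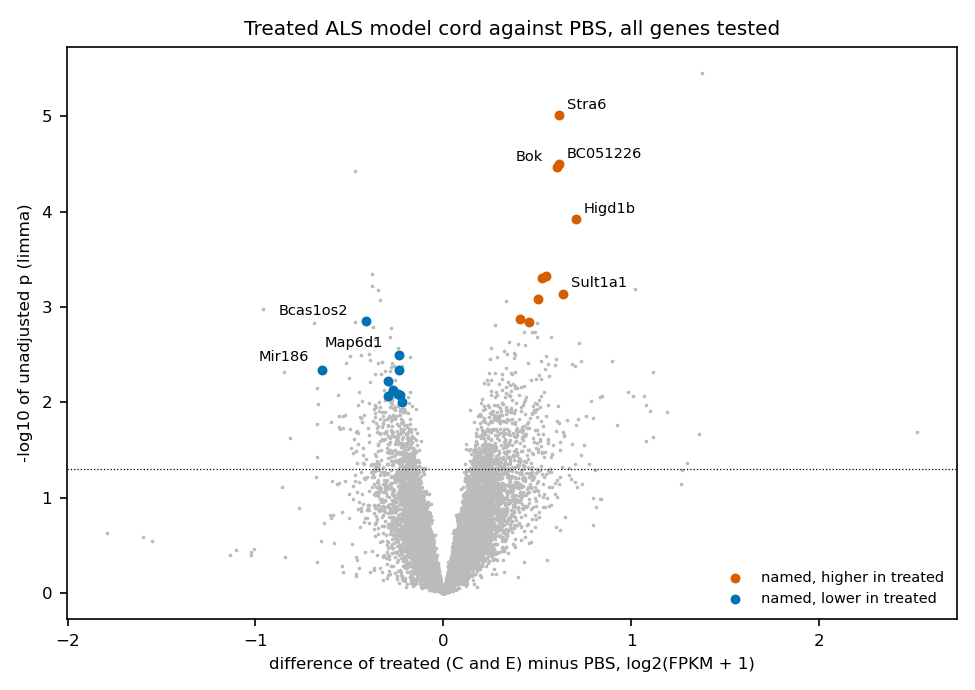
Difference of each of the 18118 tested genes between the 6 treated and 3 saline libraries (x axis, log2(FPKM + 1)) against −log10 of its unadjusted limma p (y axis), with an unadjusted p of 0.05 as the dotted line. No point passed an adjusted p of 0.05, and the labelled genes are those named first in the text.

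Without regard to the test, all 6 treated libraries lay above all 3 saline libraries for 191 genes (1.05%) and below them for 204 genes (1.13%). Genes are named here from among these, by smallest p. None of them passed the test, and their separation from saline was part of how they were chosen. The 10 named genes with higher values in the treated libraries were Stra6, BC051226, Bok, Higd1b, Grrp1, Chp2, Sult1a1, Gli1, Mchr1 and Ino80b. The 10 with lower values were Bcas1os2, Map6d1, Mir186, Slc16a6, Ap5m1, Gramd3, Hrasls, D2hgdh, Acat3 and Pmm2. At the border of the choice, Ino80b (unadjusted p = 0.00143 in limma) was the last higher gene named and Rab5if (0.00155) the first left out. Among lower genes these were Pmm2 (0.00983) and Gtpbp8 (0.0101).

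Stra6 encodes the receptor that takes up vitamin A from retinol-binding protein. It is ENSMUSG00000032327, on the plus strand of chromosome 9 from 58063788 to 58153996 in GRCm38. Its level was 0.796, 0.742 and 0.626 FPKM in P66, P67 and P74. The C libraries had 1.52, 1.59 and 1.49 FPKM, and the E libraries 1.44, 1.79 and 2.04. Both treated groups thus lay near each other and well above saline, while the healthy libraries were lowest, at 0.307 to 0.393 FPKM. The difference was 0.62 ± 0.08, with a 95% confidence interval of 0.43 to 0.80, and did not pass (limma adjusted p = 0.0883).

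Bok encodes a member of the BCL-2 family of cell death regulators (ENSMUSG00000026278, chromosome 1, 93685660 to 93695764, plus strand). The saline libraries had 3.34, 4.38 and 3.96 FPKM. The C libraries had 5.93, 5.16 and 5.49 FPKM, and the E libraries 8.50, 6.69 and 7.32. Healthy cords, at 5.21 to 6.26 FPKM, were level with group C and above saline. The pooled difference was 0.61 ± 0.09 (limma adjusted p = 0.134), made of 0.42 for C and 0.80 for E. BC051226, a noncoding RNA from a bidirectional promoter, leaned the other way, with 0.80 for C and 0.42 for E (pooled 0.61 ± 0.09, limma adjusted p = 0.134). The C and E differences share the saline libraries. Set directly against each other, C and E differed by -0.38 ± 0.11 for Bok and 0.38 ± 0.11 for BC051226, and neither passed (limma adjusted p = 0.244 and 0.238). Stra6, Bok and BC051226 passed in 1 of 18 alternatives, a fit that weights libraries by how far they stray from their group (limma adjusted p = 0.00804, 0.0482 and 0.00804), whose weights stopped short of convergence. Fitting C and E as 1 group, without the healthy libraries, counts the difference between C and E as spread. The limma adjusted p was then 0.712, 0.902 and 0.902, and with limma-voom on all groups it was 0.0996, 0.869 and 0.869.

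Higd1b, a mitochondrial protein gene whose RNA marks pericytes, was listed at 1.85, 2.25 and 1.81 FPKM in saline. Group C had 5.46, 3.65 and 3.27 FPKM and group E 3.49, 4.01 and 3.38, so C79 was the highest and every treated library exceeded every healthy one (2.51 to 3.10). The difference of 0.70 ± 0.12 did not pass (limma adjusted p = 0.359). The remaining named genes all had a limma adjusted p of 0.821. Sult1a1, a sulfotransferase that modifies phenols, drugs and catecholamines, had 8.37 to 9.72 FPKM in saline, 11.2 to 13.2 in C and 17.1 to 20.8 in E. These 3 groups did not overlap, and the C and E contributions were 0.34 and 0.93. Chp2, a calcium-binding partner of sodium/proton exchangers, had the same order of groups, with 0.506 to 0.827 FPKM in saline, 0.880 to 1.08 in C and 1.60 to 2.10 in E.

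Gli1, the transcription factor and target of Hedgehog signalling, had 0.518 to 0.785 FPKM in saline and 0.948 to 1.86 in the treated libraries. Healthy cords, at 0.841 to 1.35 FPKM, overlapped the treated range. Mchr1, the receptor for melanin-concentrating hormone, had 1.62 to 2.42 FPKM in saline, 2.49 to 3.67 in treated cords and 3.89 to 4.49 in healthy ones, so the treated libraries lay between the other groups. Ino80b, a subunit of the INO80 chromatin remodeller, had 2.98 to 3.58 FPKM in saline and 3.91 to 5.75 in treated cords. Grrp1 had 1.91 to 2.49 FPKM in saline and 2.67 to 4.08 in treated cords. For Chp2, Mchr1 and Grrp1 the lowest treated library was close to the highest saline one.

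**Figure D2:**
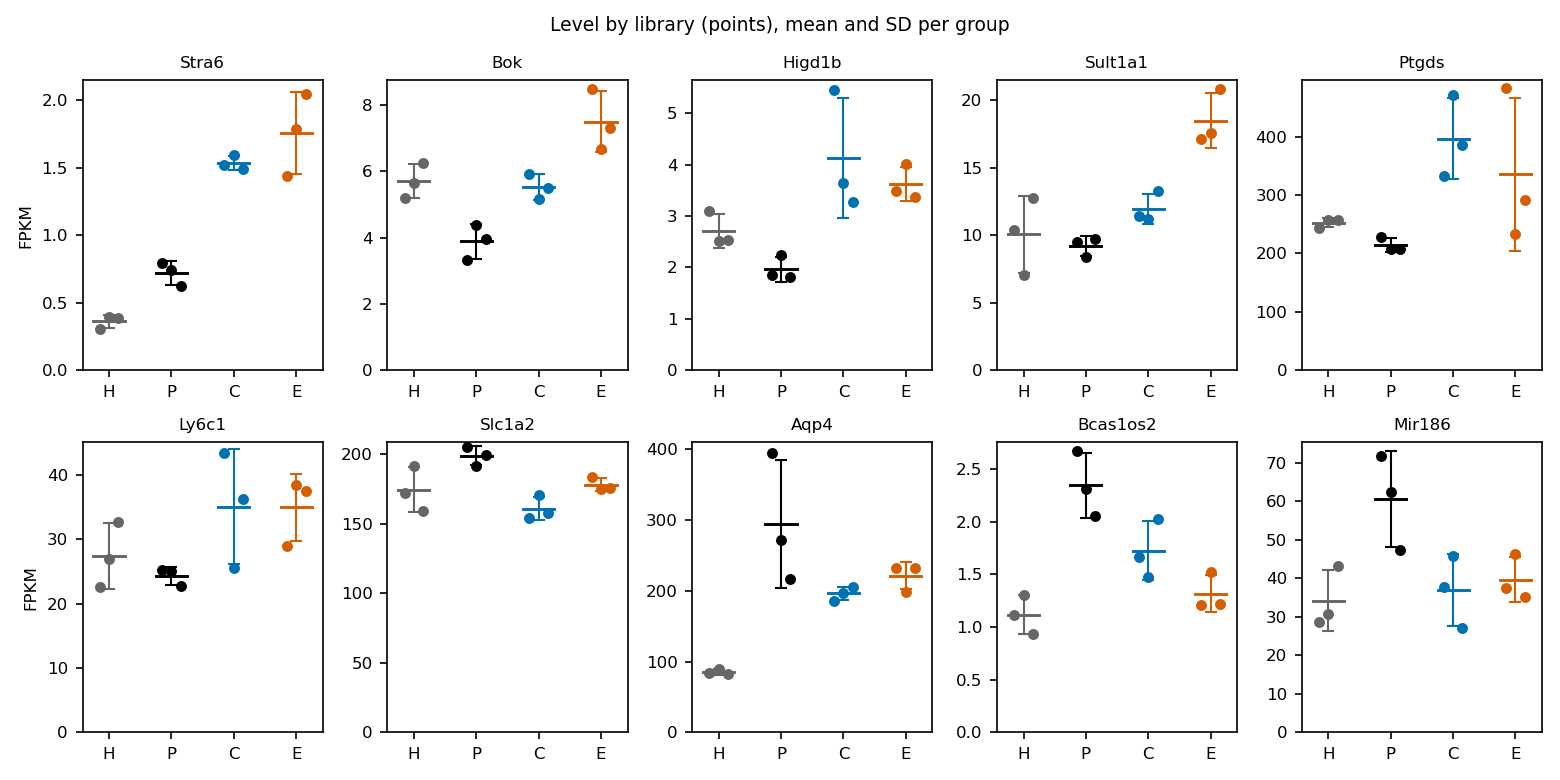
FPKM of 10 genes (y axes, linear) in each of the 12 libraries by group, with 1 point per mouse and the group mean ± SD. In Stra6, Bok, Higd1b and Sult1a1 all 6 treated points lie above the 3 saline points, and for Aqp4 the 9 treated and saline points overlap.

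The 10 genes with lower values differed by between -0.22 and -0.65. Mir186 had the largest of these differences, at -0.65 ± 0.19, on a scale that shrinks the differences of genes at low FPKM more. Its level in saline was 71.8, 62.5 and 47.2 FPKM, against 37.7, 45.8 and 27.2 in C and 37.4, 46.3 and 35.2 in E. The highest treated library, E77, was therefore just below the lowest saline library, P74, and the healthy libraries had 28.5 to 43.2 FPKM. The value covers the 71-base hairpin locus of the gene (chr3:157544279-157544349 in GRCm38, plus strand) in poly(A)-selected libraries, so it does not measure the mature miRNAs. Over 71 bases each read adds more FPKM than the 0.0542 to 0.0643 it adds in a gene of 1 kb. The levels of Mir186 therefore stand for fewer reads than the same FPKM in a longer gene. The gap between E77 and P74 is small in reads. The mature miRNAs are shown because the hairpin gives rise to both arms. Capitals mark the seed, bases 2 to 8, in the RefSeq sequences (GRCm38.p6).
mmu-miR-186-5p: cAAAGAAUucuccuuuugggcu
mmu-miR-186-3p: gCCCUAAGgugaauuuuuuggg
The 2 seeds differ.

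Bcas1os2 is annotated antisense to the oligodendrocyte gene Bcas1. It had 2.67, 2.31 and 2.05 FPKM in saline, 1.66, 1.48 and 2.03 in C and 1.21, 1.52 and 1.22 in E, a difference of -0.41 ± 0.10. The healthy range was lower still, 0.936 to 1.30 FPKM. Without the strand setting of the counting, its reads cannot be told apart from those of Bcas1, whose own difference was -0.14 ± 0.14. Map6d1, which encodes a microtubule-stabilising protein, had 16.8 to 17.5 FPKM in saline, a narrow range, and 13.5 to 15.8 in treated cords (-0.23 ± 0.06). Slc16a6, a monocarboxylate transporter family member, had 5.55 to 5.84 FPKM in saline against 4.38 to 5.09 in treated cords.

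Ap5m1, a subunit of the AP-5 trafficking complex, had 5.82 to 6.03 FPKM in saline and 4.26 to 5.28 in treated cords. D2hgdh, which oxidises D-2-hydroxyglutarate, had 4.27 to 4.70 FPKM in saline and 3.24 to 3.88 in treated cords, with healthy cords at 2.65 to 3.27. Pmm2, phosphomannomutase 2 of the N-glycosylation pathway, had 7.69 to 8.77 FPKM in saline, 6.29 to 7.57 in treated cords and 5.35 to 5.62 in healthy ones. In D2hgdh the healthy range touched the treated one, and in Pmm2 it lay below it. Acat3 had 1.73 to 2.22 FPKM in saline, 1.19 to 1.64 in treated cords and 0.321 to 0.559 in healthy cords. Its close relative Acat2 differed by 0.01 ± 0.08, and how reads were divided between them is not known. Hrasls was different in that healthy cords, at 6.51 to 8.02 FPKM, overlapped saline (6.39 to 7.50) and lay above the treated range (5.22 to 6.24).

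Groups of genes are described next by counts and medians, beside 50.1% of all tested genes with higher values and a median of 0.00 over all of them. Over all tested genes, 3.45% were higher and 2.26% lower at an unadjusted p under 0.05. No member of any of the 50 lists passed the pooled test. Endothelial genes were the 1 list of 50 whose score, averaged over its tested members as log2(FPKM + 1), did not overlap between treated and saline libraries. Among single genes, 2.18% were without overlap in either direction, so 1 list in 50 is near that background and is given as a description. Its score was 2.94, 2.93 and 2.83 in P66, P67 and P74. The C libraries had 3.09, 3.09 and 3.06, and the E libraries 3.11, 3.08 and 3.14. The healthy libraries spanned 2.71 to 2.99. 15 of 16 endothelial genes had higher values in the treated libraries, with a median of 0.20 (0.16 for C and 0.26 for E), and 4 had an unadjusted p under 0.05. In bulk tissue, more cells of a type and more RNA per cell cannot be told apart.

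Among endothelial genes, Ly6c1, a surface protein of brain endothelium, had 22.7 to 25.2 FPKM in saline. The C libraries had 43.4, 25.6 and 36.2 FPKM and the E libraries 29.0, 38.4 and 37.6, so C84 exceeded the highest saline library by only a small margin. The difference was 0.49 ± 0.16, and Ly6c1 has close relatives among the Ly6 genes, so the division of reads is uncertain. Abcb1a, the efflux pump of the blood-cord barrier, had 7.08 to 7.75 FPKM in saline and 8.03 to 9.27 in treated cords (0.20 ± 0.08). Pecam1, an adhesion molecule of endothelial junctions, had 4.10 to 4.52 FPKM in saline and 4.62 to 5.92 in treated cords (0.24 ± 0.10). These 3 were the endothelial genes without overlap (1.05% of all tested genes lay above saline so), and each had a limma adjusted p of 0.821. Of 13 tested pericyte and smooth muscle genes 10 had higher values, but the median was 0.08, and Higd1b alone had an unadjusted p under 0.05. The endothelial median was 0.15 when P74 was left out.

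**Figure D3:**
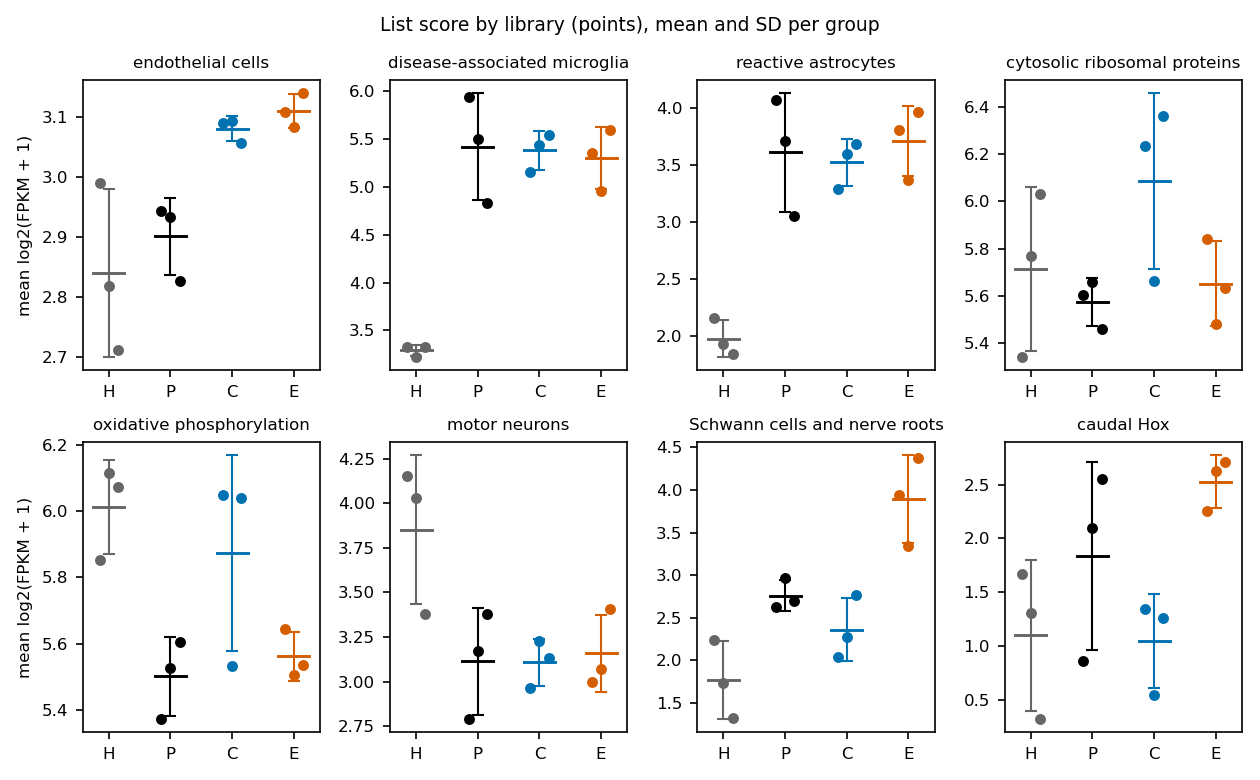
List scores (y axes, log2(FPKM + 1) averaged over tested members) of 8 gene lists in each of the 12 libraries by group, 1 point per mouse with the group mean ± SD. The endothelial score of the 6 treated libraries (3.06 to 3.14) lies above saline (2.83 to 2.94), and the caudal Hox and Schwann scores of C and E do not overlap.

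Genes of the meninges and their fibroblasts had a median of 0.62, with 14 of 17 higher, and of 0.40 without P74. Ptgds, which makes prostaglandin D2 and is abundant in the meninges, had 228, 207 and 208 FPKM in saline. The C libraries had 333, 471 and 387 FPKM and the E libraries 483, 233 and 291, against 244 to 257 in healthy cords. E77 thus lay near saline and below the healthy range, and the other treated libraries lay above both (0.72 ± 0.19, limma adjusted p = 0.821). Col1a2, a chain of collagen I, had 3.78 to 6.27 FPKM in saline, 4.53 to 8.64 in C and 8.88 to 18.6 in E, with C overlapping saline. The extracellular matrix list, which shares collagens with the meningeal one, had a median of 0.32 (16 of 20 higher), made of 0.01 for C and 0.46 for E. Without P74 that median was 0.04. Border and blood macrophage genes had higher values in 10 of 10 tested members (median 0.22, or 0.08 without P74), among them Mrc1, the mannose receptor (0.48 ± 0.19). The meningeal score spanned 2.36 to 3.36 in saline and 2.62 to 3.90 in treated cords, and the part that the share of meninges in each dissection played in these values was not tested.

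Among the enzymes that remove superoxide and peroxide, 16 of 20 had higher values (median 0.10). Of these, 3 had an unadjusted p under 0.05, against 3.45% of all tested genes. None of the 20 was without overlap, which is near the 2.18% of all tested genes. The median was 0.21 for C and 0.00 for E, and the pooled one was 0.07 without E75 and 0.19 without E77. Sod1, the cytosolic superoxide dismutase, had 140, 161 and 151 FPKM in saline, 238, 146 and 273 in C and 177, 142 and 151 in E. C79 and C85 were high, and C84 and all E libraries lay near saline (0.27 ± 0.19, limma adjusted p = 0.858). Whether the values of Sod1 hold reads of a transgene cannot be told, since the model is not named. Sod2, the mitochondrial manganese enzyme, had 24.5, 27.0 and 34.7 FPKM in saline and 27.1 to 31.0 in treated cords (0.01 ± 0.10, 95% confidence interval -0.22 to 0.24). The direction of Sod2 turned when single libraries were left out, P66 among them (-0.09).

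Catalase, Cat, had 42.7 to 47.2 FPKM in saline and 35.7 to 45.7 in treated cords (-0.14 ± 0.09). Prdx6, a peroxiredoxin rich in astrocytes, had 210, 157 and 110 FPKM in saline and 98.2 to 161 in treated cords (-0.26 ± 0.17). The largest saline value there was that of P66. The 3 genes with an unadjusted p under 0.05 were Prdx4, a peroxiredoxin of the endoplasmic reticulum (0.25 ± 0.09), Txn1, the cytosolic thioredoxin (0.34 ± 0.14), and Gpx7, a peroxidase of the secretory pathway (0.32 ± 0.15). Txn1 had 25.7 to 27.5 FPKM in saline, 40.3, 30.0 and 44.5 in C and 33.7, 27.2 and 32.5 in E. As for Sod1, C79 and C85 were highest, and E77 lay within the saline range.

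NRF2 target genes were split, 11 higher and 11 lower of 22, with a median of -0.01. Cbr3, a carbonyl reductase, had a higher value (0.32 ± 0.13), and Me1 (-0.22 ± 0.09) and G6pdx (-0.22 ± 0.10), both of which supply NADPH, had lower ones. G6pdx had 25.5, 23.9 and 21.1 FPKM in saline, 17.5 to 23.1 in treated cords and 13.7 to 17.4 in healthy ones, with C84 inside the saline range. The core letters of the antioxidant response element, TGACNNNGC, were searched on both strands in RefSeq windows of 300 bases (250 before to 50 after each start, GRCm38.p6). They occurred in 12.4% of all 32851 windows, and 2129 of the 12730 tested genes with a window had them (16.7%). Of the genes with the letters 49.98% had higher values in treated cords, against 50.5% of those without. An unadjusted p under 0.05 was found for 4.88% of genes with the letters and 5.23% of those without. Of the NRF2 list 6 of 17 genes with a window had them. A match describes letters and is not a measured binding site.

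The 250 bases before the start are shown for a pair of NRF2 list members with the letters, in capitals as they read on the gene's strand. Gclm, the modifier subunit of the enzyme that begins glutathione synthesis, differed by -0.03 (chr3:122245307-122245556, plus strand). G6pdx, the first enzyme of the pentose phosphate pathway, is a member with the letters and an unadjusted p under 0.05 (chrX:74428881-74429130, minus strand).
Gclm: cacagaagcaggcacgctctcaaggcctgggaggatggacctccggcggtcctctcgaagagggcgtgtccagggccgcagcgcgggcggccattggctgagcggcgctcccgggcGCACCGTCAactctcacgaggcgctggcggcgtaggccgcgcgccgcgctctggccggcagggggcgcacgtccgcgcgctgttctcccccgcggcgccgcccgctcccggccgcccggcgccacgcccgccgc
G6pdx: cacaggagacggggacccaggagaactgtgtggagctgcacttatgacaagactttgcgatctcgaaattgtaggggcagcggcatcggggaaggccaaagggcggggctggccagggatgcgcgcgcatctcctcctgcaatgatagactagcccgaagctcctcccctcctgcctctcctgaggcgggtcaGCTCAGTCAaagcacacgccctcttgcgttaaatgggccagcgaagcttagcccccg
In both windows the match lies on the opposite strand. Genes for manganese and other metals had a median of 0.01, with 9 of 17 higher. Slc39a14, a manganese and zinc importer, had 6.23 to 11.2 FPKM in saline and 6.19 to 8.44 in treated cords (-0.19 ± 0.15).

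Genes of respiration and translation had higher values mainly through 2 libraries. All 48 cytosolic ribosomal protein genes were higher (median 0.29), with medians of 0.51 for C and 0.08 for E. Of the 48, 4 had an unadjusted p under 0.05, against 3.45% of all tested genes. The score was 5.61, 5.66 and 5.46 in saline, 6.23, 5.66 and 6.36 in C, and 5.84, 5.48 and 5.64 in E. C79 and C85 stood above the other 4 treated libraries, of which E77 and E90 lay within the saline range and C84 at its upper end. Of 34 nuclear genes of oxidative phosphorylation 31 were higher (median 0.21, 0.35 for C and 0.07 for E), with the same pair of libraries highest (6.05 and 6.04, against 5.50 to 5.64 in the other treated libraries). Rpl27, a protein of the large subunit, had 27.0 to 28.6 FPKM in saline and 63.4 and 65.1 in C79 and C85, against 29.9 in C84 and 31.3 to 43.1 in E (0.58 ± 0.24). Sdhb, the iron-sulfur subunit of complex II, followed the same order, with 49.2 and 49.7 FPKM in C79 and C85 and 32.5 to 35.2 in saline (0.26 ± 0.10). Ribosomal protein genes have many near-identical pseudogenes, so their reads are uncertain. Mitochondrially encoded genes had a median of -0.05.

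The markers of reactive glia did not separate treated from saline cords. Genes of disease-associated microglia had a median of -0.14 (9 of 28 higher), homeostatic microglia genes -0.15 (2 of 17 higher) and reactive astrocyte genes -0.11 (7 of 21 higher). The saline libraries themselves were far apart. The score of disease-associated microglia was 5.94 in P66, 5.50 in P67 and 4.83 in P74, and the 6 treated libraries, at 4.96 to 5.60, lay between P66 and P74. Leaving out P66 turned the median of that list to 0.15, and leaving out P74 made it -0.39. For reactive astrocytes these medians were 0.11 and -0.37, for homeostatic microglia -0.02 and -0.36. Clec7a, a glucan receptor of activated microglia, showed it in 1 gene, with 55.2, 31.1 and 19.2 FPKM in P66, P67 and P74 and 16.8 to 30.5 in treated cords (-0.44 ± 0.27). The annotation lists it as a polymorphic pseudogene. Tlr2, a receptor for bacterial lipoproteins, had 12.8, 8.62 and 6.19 FPKM in the same saline libraries and 4.75 to 7.57 in treated ones (-0.43 ± 0.18). P74 also had the highest skeletal muscle score of the 9 libraries, 2.84 against 0.479 and 0.834 in P66 and P67 and 0.251 to 1.93 in treated cords. The median of the muscle list was -0.93, and 0.02 without P74. The part of carried-over muscle in the glial values was not tested.

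Astrocyte identity genes had a median of -0.08 (3 of 15 higher). Slc1a2, the main glutamate transporter of astrocytes, had 205, 191 and 199.6 FPKM in saline. The C libraries had 154, 170.3 and 158 FPKM and the E libraries 183, 175 and 175, so all 6 were lower than saline, as were 2 of the 3 healthy libraries (159 to 192). The difference was -0.23 ± 0.08 (95% confidence interval -0.41 to -0.06, limma adjusted p = 0.821). Aqp4, the water channel of astrocyte endfeet, had 395, 272 and 217 FPKM in saline and 186 to 233 in treated cords (-0.45 ± 0.15). P74 lay inside the treated range, and the difference was -0.22 without P66 and -0.65 without P74. Oligodendrocyte precursor genes had a median of -0.13 (2 of 12 higher), or -0.05 without P66, among them Tnr, the matrix protein tenascin-R, with 10.2 to 12.1 FPKM in saline and 7.23 to 9.90 in treated cords (-0.32 ± 0.11).

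Neuronal lists had pooled medians of 0.03 to 0.26. Of 22 general neuron and synapse genes 20 were higher with a median of 0.11, which was 0.01 without P66 and 0.24 without P74. Syp, the vesicle protein synaptophysin, had 33.7, 50.1 and 59.7 FPKM in saline and 52.3 to 67.7 in treated cords (0.34 ± 0.16), so P66 was low and P74 inside the treated range. All 14 dorsal horn neuron genes were higher (median 0.26), with 0 at an unadjusted p under 0.05. The dorsal horn score was 3.60 to 3.78 in saline and 3.95 to 4.21 in C. In E75, E77 and E90 it was 4.24, 4.09 and 3.29, so E90 lay below saline. Genes of motor neurons, the cells lost in ALS, had a median of 0.03 with 12 of 22 higher, and -0.16 without P66. Their score was 2.79 to 3.38 in saline, 2.97 to 3.40 in treated cords and 3.38 to 4.15 in healthy ones. Sncg, gamma-synuclein of motor and sensory neurons, had 35.7 to 38.4 FPKM in saline, 45.6 to 52.8 in C and 36.2 to 52.2 in E (0.34 ± 0.12), with E77 inside the saline range and healthy cords at 60.3 to 81.1.

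Glucocorticoid-responsive and immediate early genes had higher values mainly in libraries of group E. Of 14 glucocorticoid-responsive genes 11 were higher, with a median of 0.12 (-0.04 for C, 0.32 for E). The score was 4.15 to 4.31 in saline and 4.15 to 4.23 in C. E77 and E90, at 4.77 and 4.84, lay above both, and E75, at 4.15, lay inside the saline range. The pooled median was 0.26 without E75, 0.07 without E77 and 0.06 without E90. Fkbp5, a chaperone of the glucocorticoid receptor, had 7.28 to 10.4 FPKM in saline, 9.26 to 11.0 in C and 14.3 to 16.9 in E (0.50 ± 0.13). Only the E libraries cleared the saline range as a group. Cdkn1a, the cell-cycle inhibitor p21, had 37.9, 42.3 and 30.7 FPKM in saline, 43.6 to 46.0 in C and 49.9 to 69.9 in E (0.50 ± 0.15). Bcl2l1, which protects cells from apoptosis, had 27.0 to 29.9 FPKM in saline and 30.0 to 36.3 in treated cords (0.19 ± 0.08). The list of p53 and cell death genes that holds both had a median of -0.02. Immediate early genes had a median of 0.17 (-0.02 for C and 0.38 for E), with Egr1 at 0.35 ± 0.15 and Fos at 0.33 ± 0.15. That median was 0.10 without E77.

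**Figure D4:**
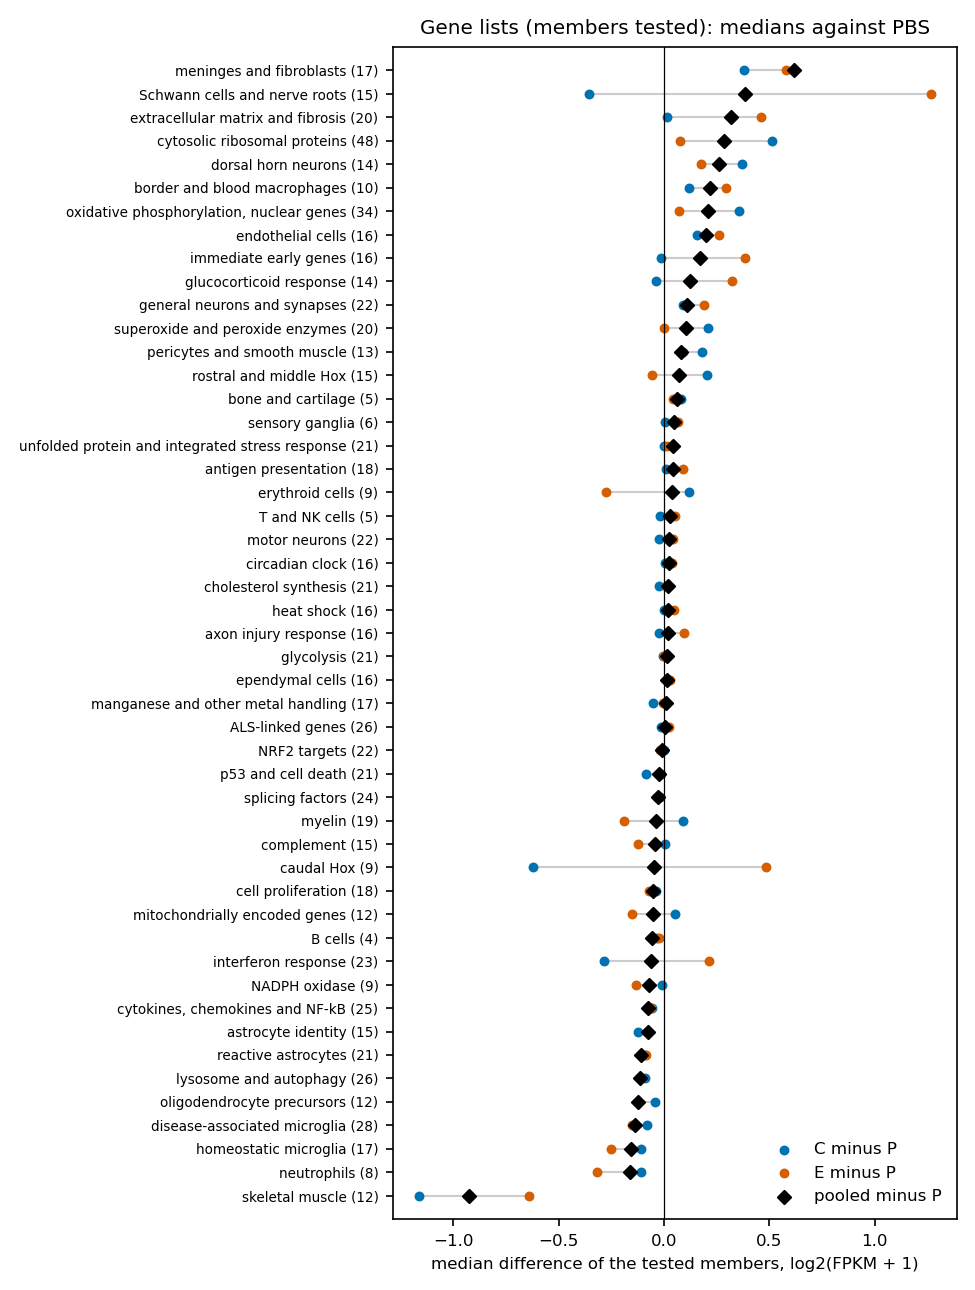
Median difference from saline (x axis, log2(FPKM + 1)) of each of the 49 lists with 4 or more tested members, for C, for E and for the 6 treated libraries pooled. The C and E points of a list share the saline libraries, and they lie far apart for the Schwann list (-0.36 and 1.27) and the caudal Hox list (-0.62 and 0.48).

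A pooled difference can hide opposite ones, so C was tested directly against E. The difference itself does not use the saline libraries, which enter the fit only through the shared estimate of the spread. There 31 genes passed (0.171% of those tested, limma), 9 higher in C (0.0497%) and 22 higher in E (0.121%). None of the 20 genes named above for the pooled comparison was among them. With only 0.171% of all genes called, that is no result about those 20. Singly, C against saline had 1 gene called (0.00552%), the lincRNA model Gm10479, and 1802 at an unadjusted p under 0.05 (9.95%). E against saline had 0 called, with 889 at an unadjusted p under 0.05 (4.91%) and 0 by limma-voom. Gm10479 was chosen for mention after its values were seen. It was listed at 0.547, 0.362 and 0 FPKM in saline, 2.73 to 4.65 in C, 1.4 to 1.87 in E and 1.5 to 2.23 in healthy cords, and had the smallest pooled p (1.38 ± 0.17, limma adjusted p = 0.0636).

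Of the 31 genes, 4 belonged to the Schwann cell and nerve root list and 1 to the caudal Hox list. Scn7a, a sodium channel of Schwann cells, had 2.05 to 2.14 FPKM in saline, 0.924 to 1.67 in C and 4.11 to 6.52 in E, so its pooled value of 0.22 ± 0.14 averaged a lower and a higher group (C against E -1.48 ± 0.16, limma adjusted p = 0.0184). Sostdc1, a secreted inhibitor of BMP signalling (-1.86 ± 0.23), and Lamb1, a laminin chain (-1.33 ± 0.18), were likewise higher in E. Lcn2, an acute-phase lipid carrier of reactive astrocytes, had 1.41 to 2.87 FPKM in saline, 2.05 to 2.97 in C and 6.93 to 15.3 in E. Its pooled difference of 1.02 ± 0.22 was that of E, and C and E differed by -1.83 ± 0.26 (limma adjusted p = 0.0252). Steap4, a metalloreductase, had 3.97 to 9.48 FPKM in E and 0.494 to 1.22 in C. The Schwann score was 2.62 to 2.96 in saline, 2.04 to 2.76 in C and 3.35 to 4.38 in E. The part that nerve root tissue in each dissection played in these genes was not tested.

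Higher in C than in E were Tmem125 (0.62 ± 0.07), Rab37, a vesicle-traffic GTPase (0.63 ± 0.09), and Tmprss5, a serine protease of the cord (0.89 ± 0.13). Tmprss5 had 6.79 to 7.89 FPKM in saline, 8.65 to 10.6 in C and 3.70 to 5.59 in E, a pooled difference of -0.10 ± 0.11. Myelin genes, with a pooled median of -0.04, had 0.09 for C and -0.19 for E. Their score was 6.44 to 6.56 in saline, 6.49 to 6.60 in C and 6.13 to 6.35 in E. Interferon response genes, with a pooled median of -0.06, had -0.28 for C and 0.21 for E, with overlapping scores. Scores of C and E did not overlap for 5 of 50 lists: Schwann, myelin, immediate early, caudal Hox, and rostral and middle Hox. The same share over single genes was not counted, so these 5 are given as a description. The caudal Hox score, which follows the level of the cord that was cut, was 0.86, 2.09 and 2.55 in saline, 1.34, 0.54 and 1.26 in C and 2.25, 2.63 and 2.71 in E. C and E did not overlap on it. With that score as a covariate, 0 genes passed in the pooled comparison and 0 in C against E. The endothelial median was then 0.19, Stra6 differed by 0.62 and Higd1b by 0.71. The score averaged 1.79 over the treated libraries and 1.83 in saline, so this covariate could move pooled differences only little. Between C and E, which did not overlap on the score, cord level and treatment cannot be told apart by this fit. Leaving out C79, or fitting without the healthy libraries, likewise left 0 genes in C against E, and leaving out C85 left 1.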

How the data were processed

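Poly(A) RNA was sequenced from the lumbar cord of 12 mice, 3 in each of 4 groups, per the labels' protocols. The submitters' processing notes name cutadapt, HISAT2, featureCounts and GRCm38. The sources used here do not give their versions, roles or strand setting. The authors deposited 4 tables of FPKM for 33906 genes. No unit is named, and FPKM was inferred because 95.2 to 95.7% of the low values per library, multiplied by GENCODE M21 exon length, lay within 0.02 of whole multiples (up to 50) of 1 read. Names and coordinates came from GENCODE M21 (33829 genes matched).

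Values deposited as FPKM were analysed as log2(FPKM + 1). Genes with at least 10 reads in at least 3 libraries and 15 in all were tested (18118, with 15788 set aside). limma 3.58.1 in R 4.3.3 fitted 1 mean per group over all 12 libraries, with trended, robust moderation and Benjamini-Hochberg adjustment. All tests are two-sided. The steps were also run on simulated counts in which C and E changed alike, unlike the genes that differed between C and E here. The outcome of that run is not given and is not used as support. The pooled contrast is the mean of the C and E means minus P. The mice of a group are separate animals per the series text.

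Named genes were, per direction, the 10 of smallest p with a given name, a mean of at least 1 on the log2 scale and no overlap between treated and saline libraries, up to 3 of smallest p per gene list, the superoxide and peroxide enzymes, and the 3 of smallest p per direction in C against E. The members and lists were chosen with earlier results of these data known. The 18 alternatives covered the pseudocount, filters, scaling, limma-voom, the libraries fitted, library weights, a caudal Hox covariate and leaving out each library. A single-gene result is left out of the report.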

Additional observations from a re-analysis of the deposited data

Results flagged for a closer look

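For 5 of 116 sets of values tested over the 6 treated libraries, 1 library lay apart from the rest, with a gap to its nearest neighbour, as a share of the whole range, above the 95% critical value of Dixon for 6 values. Chance flags about 1 in 20 such sets. The list scores concerned were p53 and cell death (0.795 of the range, E90 high at 2.96), T and NK cells (0.674, E90 high at 1.04), dorsal horn neurons (0.701, E90 low at 3.29), skeletal muscle (0.779, E90 high at 1.93) and bone and cartilage (0.696, C84 high at 1.34). E90 was the library apart in 4 of the 5.

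The response of 8 named genes differed between C and E by limma's direct test. Lcn2 (-1.83), Steap4 (-1.89), Scn7a (-1.48), Sostdc1 (-1.86) and Lamb1 (-1.33) were higher in E, and Tmem125 (0.62), Rab37 (0.63) and Tmprss5 (0.89) were higher in C. The pooled values of these 8 genes against saline average 2 unlike groups. Scn7a, Sostdc1, Lamb1, Tmem125, Rab37 and Tmprss5 were named for their small p in this same test, so their flag was fixed by that choice.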

How the results depend on the processing

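The 0 calls of the pooled comparison became 3 without a filter (Gm16218, Gm25998 and Mir7239, all lower), 3 with an FPKM filter (Gm10479 higher, Gm25998 and Mir7239 lower) and 4 with library weights (Bok, Stra6, Gm10479 and BC051226, all higher), whose estimation stopped short of its tolerance. They stayed at 0 under the other settings, leave-one-out included, where genes at an unadjusted p under 0.05 ranged from 624 (without P66) to 1510 (without P74). The limma adjusted p of Stra6 ranged from 0.00804 to 0.712.

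The 1 gene called in C against P became 0 with a pseudocount of 0.1, limma-voom, only P, C and E, or the caudal Hox covariate, 5 without a filter, 2 with median-ratio scaling and 1325 with library weights. Leaving out 1 library gave 0 to 2. E against P gave 3 without a filter, 4 with library weights and 0 to 2 with 1 library left out. The 31 genes of C against E became 17 with a pseudocount of 0.1, 4 without a filter, 0 with only P, C and E, 0 with the caudal Hox covariate, 420 with library weights, and 0 (without C79) to 56 (without E77) with 1 library left out. It was 1 without C85, 15 without E75 and 9 without E90. The cause was not tested. Leaving out 1 library moved the 395 genes without overlap to between 493 (without C85) and 1494 (without P74), as fewer libraries overlap less.

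Of 1206 refitted values of 67 genes, 1202 kept their direction. Some settings, such as the filters and the libraries fitted without H, cannot change the difference of a gene. Many of the 67 genes were also chosen by small p in these data, so the count says little about how firm a direction is. Sod2 (0.01) ranged up to 0.15 without P74 and turned, at -0.090 without P66, -0.02 without P67, -0.0014 without E77 and -0.00154 without E90. Of 899 recomputed list medians, 879 moved by less than the spread between replicates of the list score. That spread was wide for some lists, so a median could turn sign and still be counted among the 879. Without P66, disease-associated microglia (-0.14 to 0.15) and interferon response (-0.06 to 0.22) did so. No paired analysis was possible because no mouse number is shared between groups.

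A group of 3 libraries limits the precision: with a median 95% interval of 0.22 to either side, smaller differences were not detectable for a typical gene. Larger ones could also miss the stricter adjusted threshold, as did Stra6 at 0.62 (limma adjusted p = 0.0883).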
